A study of Homo sapiens with 16 samples.

Results

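Contacts between different acrocentric chromosomes, the human chromosomes 13, 14, 15, 21 and 22, were examined in Hi-C libraries of the human leukaemia cell line K562. The members were pairs of 500 kb bins on 2 different chromosomes of this group, in hg19 coordinates. The end of chromosome 13 from 80 Mb on, apart from its last bin, and chromosome 22 from 16 to 26 Mb were left out because they are rearranged in K562. This gave 127774 member pairs, of 14404167 pairs of bins on different chromosomes in all. They were formed by 578 bins, of which chromosome 13 had 123, chromosome 14 had 175, chromosome 15 had 159, chromosome 21 had 70 and chromosome 22 had 51. Over all libraries they held 776715 contacts, which was 0.7999% of the 97101410 contacts between chromosomes.

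In Hi-C, fixed chromatin is cut, DNA ends that are close in space are ligated, and the ligated pairs are sequenced and counted. Chromatin of K562 nuclei was cut with the restriction enzyme HindIII for 0.25, 1, 3 or 12 h, with 2 replicate libraries at each time. The 4 times were the only groups, and all libraries shared the cell line, the formaldehyde fixation and the enzyme. The libraries held 62777251 to 176412207 contacts each, and the share joining different chromosomes ran from 9.65% and 9.85% after 0.25 h to 11.9% and 12.0% after 12 h. The labels do not say whether replicates came from separate cultures, so the p-values measure only the spread between these libraries, which may be technical. K562 carries extra and rearranged chromosomes, so levels here describe this line and not a normal karyotype.

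Acrocentric chromosomes have a centromere close to one end and a very small short arm. Those short arms carry the arrays of ribosomal RNA genes, around which the nucleolus forms, and acrocentric chromosomes are known to meet there and to exchange sequence. The stretches next to human centromeres, those of the acrocentric chromosomes among them, are also known for near-identical copies of sequence shared between chromosomes. The question put to the data was whether these chromosomes touched each other more than their total contacts predict, and whether this depended on the distance from the short-arm end and on the digestion time.

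The expectation for a pair of bins was the product of 1 factor per bin, fitted so that every bin kept its own total of contacts with other chromosomes. A value of 1 is thus the level predicted from how often both bins touched any other chromosome. Distance was counted from the first 500 kb bin of a chromosome that was at least 50% present in every library, called its first mapped bin here. It started at 19000001 on chromosome 13, 20000001 on chromosomes 14 and 15, 9500001 on chromosome 21 and 17000001 on chromosome 22. Chromosome 21 was the one whose first bins lie in mapped short-arm sequence, and its used bins resumed at 14500001 beyond the centromere. Its 10 used bins between 2 and 10 Mb were thus the first of its long arm, and leaving out the first 2 Mb did not remove them. A bin was near when it lay within 10 Mb of the start of the first mapped bin and far otherwise, with 70 near and 508 far bins. Chromosomes 13 and 14 had 20 near bins each, chromosome 15 had 16 and chromosome 21 had 12. Chromosome 22 had 2, at 9 Mb or more, since its first stretch was left out. The ribosomal arrays themselves were not analysed here.

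As whole chromosomes, the acrocentric group met its own members hardly more often than expected. In the libraries the observed over expected value of all member pairs was 1.021 and 1.017 after 0.25 h, 1.013 and 1.019 after 1 h, 1.016 and 1.021 after 3 h, and 1.014 and 1.022 after 12 h, where each pair of values gives replicates 1 and 2. All 8 values lay above 1 and the times overlapped. Contacts of the same bins with all other chromosomes stood at 0.9985 over all libraries, a level set by the first, since each bin kept its total. Their difference thus restates that the first value lay above 1. The difference was 0.028 ± 0.0053 on the log2 scale (SD, n = 8 libraries), higher in 8 of 8 libraries (exact two-sided sign-flip p = 0.0078, the smallest that 8 libraries can give). It was 0.0027 (exact sign-flip p = 0.22) when the first 2 Mb of each acrocentric chromosome were left out. It turned to -0.032 (exact sign-flip p = 0.0078) when the expectation was matched on classes of trans partners. These classes are described, with their limit, with the chromosome pairs. The difference turned to -0.079 without chromosome 15. It was -0.0022 (exact sign-flip p = 0.34) without pairs of 5 Mb blocks above 3, -0.0039 (exact sign-flip p = 0.26) with only bins in which every 20 kb bin was present and -0.0013 (exact sign-flip p = 0.58) without chromosome 22.

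Contacts were enriched at the short-arm end, while far pairs pooled lay near expectation. Pairs with both bins near held 20723 contacts against 10764 expected, 1.93 times the expectation. Their values were 2.04 and 2.26 after 0.25 h, 1.96 and 1.96 after 1 h, 1.96 and 1.95 after 3 h, and 1.76 and 1.84 after 12 h. Both 0.25 h libraries were the highest and both 12 h libraries the lowest. In the shallowest library, 0.25 h replicate 2, the 95% Poisson interval of the value was 2.15 to 2.38, which covers counting error only. Pairs of 1 near and 1 far bin stood at 1.015 over all libraries, and pairs of far bins, which held 590561 contacts, at 1.002. The near value exceeded the far value by 0.97 ± 0.11 on the log2 scale, a ratio of 1.96 (SD, n = 8, higher in 8 of 8 libraries, exact two-sided sign-flip p = 0.0078). In the first sequencing run of the same libraries this difference was 1.05. Its size changed with the bins used, to 0.18 with the first 2 Mb left out, 0.23 with only bins in which every 20 kb bin was present, 0.27 without pairs of 5 Mb blocks above 3, 0.33 with the rearranged stretches put back and 0.49 without chromosome 21.

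Single classes of far pairs departed from this mean. From 65 to 90 Mb only chromosomes 14 and 15 had bins in use, so classes with both bins there are contacts of this 1 chromosome pair. Pairs with both bins at 75 to 80 Mb stood at 1.87, those at 65 to 70 by 75 to 80 Mb at 1.82 and those at 80 to 85 by 85 to 90 Mb at 1.91. Bins at 0 to 5 Mb met those at 85 to 90 Mb at 2.29, with 590 contacts against 258 expected, of which 376 came from chr14:105000001-110000000 with chr15:20000001-25000000. These classes were picked for their level and carry no test.

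**Figure D1:**
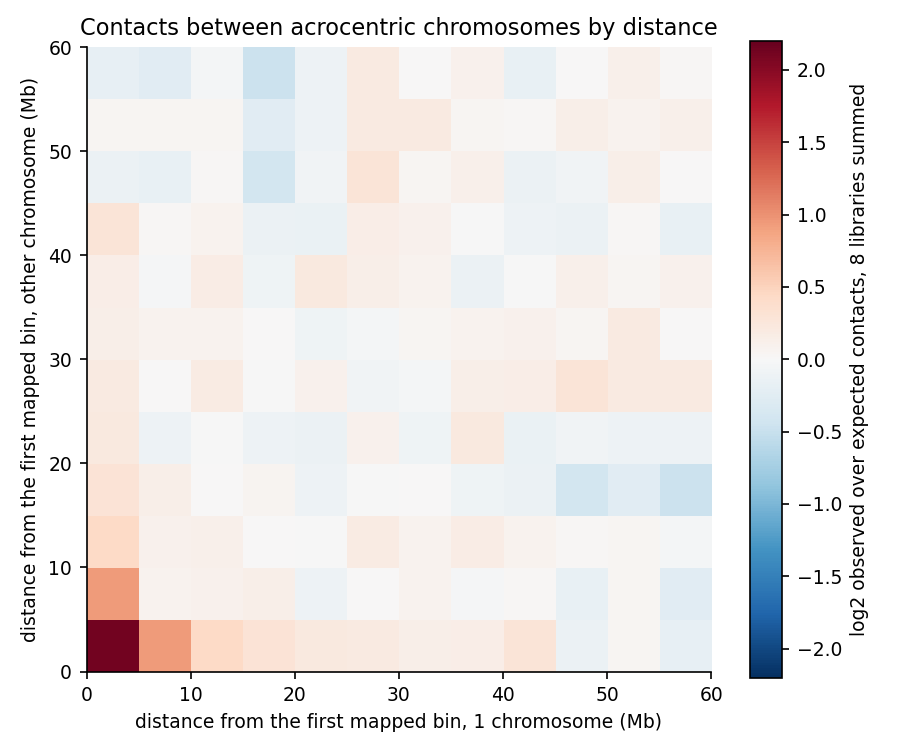
Observed over expected contacts, as log2 (colour), between acrocentric chromosomes in 5 Mb classes of distance from the first mapped bin of either chromosome (both axes, Mb), with the 8 libraries summed. The class of 0 to 5 Mb by 0 to 5 Mb has the highest level, 4.35 times the expectation, 0 to 5 Mb by 5 to 10 Mb has 1.92, and the next highest class within 60 Mb has 1.35. Classes beyond 60 Mb, described in the text, are not drawn.

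The enrichment was highest in the first 2 Mb, and there largely in 1 bin. These held 11 bins, of which chromosomes 13 and 14 had 4 each, chromosome 15 had 1 and chromosome 21 had 2. Pairs with both bins there held 2330 contacts against 294 expected, 7.93 times the expectation. Of these contacts, 1855 joined the short-arm bin chr21:10500001-11000000 to the 9 bins of chromosomes 13, 14 and 15, at 14.8 times. Without that bin the class stood at 2.82, with 475 contacts against 169 expected, and without chromosome 21 at 1.78. Pairs of 1 such bin and 1 bin at 2 to 10 Mb stood at 3.24. Pairs with both bins at 2 to 10 Mb, 8477 contacts, stood at 1.14. Even this last value lay above that of far pairs, by 0.18 ± 0.046 on the log2 scale (SD, n = 8, 8 of 8 libraries, exact sign-flip p = 0.0078).

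Other autosomes have centromere-proximal contacts of the same kind, and these were measured against the same expectation from the start of their long arms. The comparison is not exact, since the first 2 bins of chromosome 21 are short-arm sequence. Its bins at 2 to 10 Mb are the first of its used long arm, while the other long arms at 2 to 10 Mb lack their first bins. Pairs of long-arm bins within 10 Mb stood at 1.19 times the expectation, so the acrocentric near value was 1.66 times as high (log2 difference 0.73 ± 0.12, SD, n = 8, 8 of 8 libraries, exact sign-flip p = 0.0078). The log2 difference was 0.35 without chromosome 21 and 0.058 with near drawn at 20 Mb. Within 2 Mb the other long arms stood at 2.04, against 7.93 for the acrocentric bins (log2 difference 1.96 ± 0.10, 8 of 8 libraries, exact sign-flip p = 0.0078), and acrocentric bins met those of other long arms at 3.66. That difference rested on chr21:10500001-11000000, since it was 0.39 ± 0.29 without this bin (above 0 in 7 of 8 libraries, exact sign-flip p = 0.016) and -0.26 ± 0.38 without chromosome 21 (above 0 in 2 of 8 libraries, exact sign-flip p = 0.11), both added after the values were seen. The contrast did not hold throughout these 2 Mb, since pairs with both bins in the first 0.5 Mb stood at 5.61 on 213 contacts for acrocentric chromosomes and 5.45 for other long arms, and those at 1 to 2 Mb at 7.75 and 1.42. At 2 to 10 Mb acrocentric pairs stood at 1.14 and other long arms at 1.12. That log2 difference, 0.019 ± 0.042, was above 0 in 5 of 8 libraries (exact sign-flip p = 0.27). Bins at 2 to 10 Mb of acrocentric chromosomes met the same stretch of other long arms at 1.23 times the expectation, more than they met each other (log2 difference -0.11 ± 0.037 for acrocentric pairs, lower in 8 of 8 libraries, exact sign-flip p = 0.0078).

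The result for the near stretch thus differed between its first 2 Mb and the remainder. With the first 2 Mb of the acrocentric chromosomes left out, the difference from the whole first 10 Mb of the other long arms turned to -0.061 (exact sign-flip p = 0.016). It was 0.020 (exact sign-flip p = 0.18) without those pairs of 5 Mb blocks that stood above 3, and -0.013 (exact sign-flip p = 0.65) with the rearranged stretches put back. With only bins in which every 20 kb bin was present it was -0.015 (exact sign-flip p = 0.45).

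**Figure D2:**
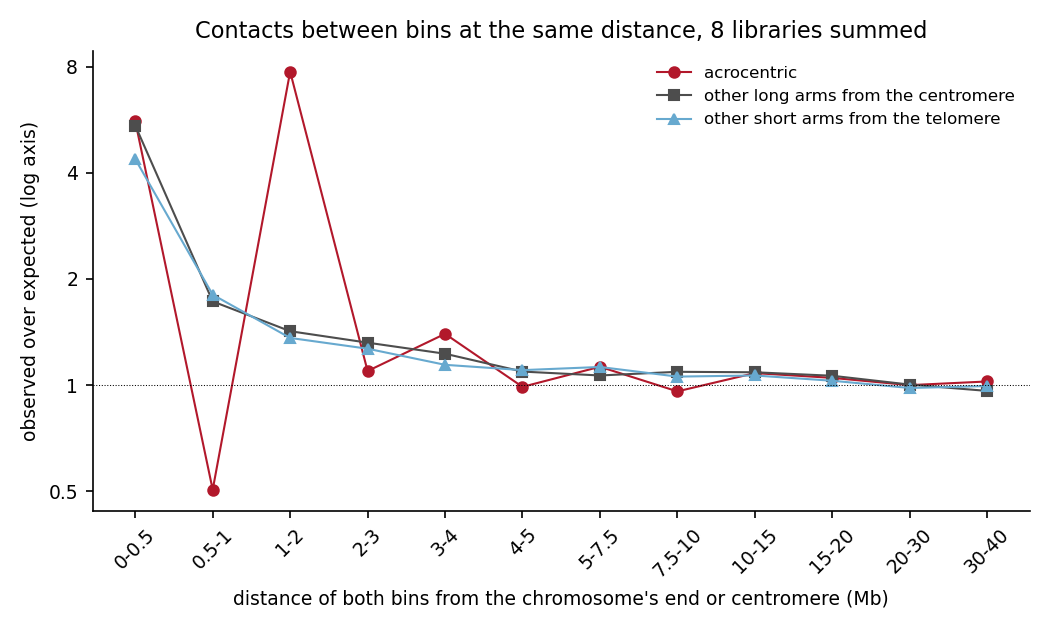
Observed over expected contacts (log axis) between bins of different chromosomes that lie at the same distance (Mb, x axis) from the first mapped bin of acrocentric chromosomes, from the centromere along other long arms, or from the telomere along other short arms, with the 8 libraries summed. All 3 start high, at 5.61, 5.45 and 4.38, and lie near 1 beyond 10 Mb, while the acrocentric point at 1 to 2 Mb, 7.75, stands apart and the one at 0.5 to 1 Mb rests on 2 contacts.

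Within the near stretch a few pairs of bins carried much of the excess. Of the near pairs, 1767 had at least 3 expected contacts over all libraries. Their median value was 1.15, 58.8% lay above 1, and 107 lay above 3. The 10 highest, chosen by this value and therefore given without a test, held 18.6% of all near contacts, where 0.961% was expected, and 37.7% of the excess. Without them the near value was 1.58.

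The highest joined chr14:20000001-20500000, its first mapped bin, with chr15:22000001-22500000. It held 1157 contacts where 5.81 were expected, 199 times the expectation. Its contacts were 184 and 155 after 0.25 h, 176 and 104 after 1 h, 172 and 148 after 3 h, and 116 and 102 after 12 h. The deepest libraries, those of 12 h, thus had the fewest contacts apart from 1 h replicate 2. A single pair of 20 kb bins, from 20240001 to 20260000 on chromosome 14 and from 22360001 to 22380000 on chromosome 15, held 378 of them, or 32.7%, and the 5 highest 20 kb pairs held 71.2%.

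The second joined chr13:19000001-19500000 with chr21:15000001-15500000. It held 882 contacts against 5.25 expected, 168 times the expectation. Its contacts were 134 and 121 after 0.25 h, 123 and 85 after 1 h, 122 and 124 after 3 h, and 89 and 84 after 12 h. The contacts were spread over 133 pairs of 20 kb bins, of which the highest held 14.7%.

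The short-arm bin chr21:10500001-11000000 was a partner in 6 of the 10. It met chr13:19500001-20000000 at 32.4 times the expectation, with 428 contacts. It met the neighbouring bins of chromosome 13 from 19000001 and from 20000001 at 20.6 and 19.8 times, the first bin of chromosome 14 at 17.3 times, that of chromosome 15 at 17.1 times, and chr13:23000001-23500000 at 14.1 times. The pair at 20.6 times was at 16.01 and 19.5 times after 0.25 h, 25.2 and 22.3 after 1 h, 18.6 and 24.4 after 3 h, and 16.7 and 23.6 after 12 h, so its times overlapped. Its contacts were spread evenly, with 3.25% in the highest pair of 20 kb bins. The 10 highest therefore held sharp pairs, in which a few 20 kb bins carried the contacts, and diffuse ones.

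The bins of the first 2 Mb had partners of a like level outside the acrocentric group. The bin chr21:9500001-10000000 met chr1:143000001-143500000 at 304 times the expectation, with 3301 contacts. The bin chr21:10500001-11000000 met chr16:33500001-34000000 at 229 times, with 7371 contacts. The bin chr13:19000001-19500000 met chr18:14000001-14500000 at 179 times, above its 168 with chromosome 21. The bin chr15:20000001-20500000 met chr5:61500001-62000000 at 60.8 times. The bin chr14:20000001-20500000 was the exception, since its next partner after chromosome 15 stood at 22.05 times, on chr2:131500001-132000000. These levels were chosen as the highest for each bin and carry no test.

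The 10 highest near pairs, summed, stood lower at longer digestion, and the other near pairs differed little between times. They were at 46.7 and 62.4 times the expectation after 0.25 h, 41.7 and 40.2 after 1 h, 38.0 and 41.6 after 3 h, and 24.3 and 27.1 after 12 h. All other near pairs stood at 1.58 and 1.60 after 0.25 h, 1.57 and 1.57 after 1 h, 1.60 and 1.56 after 3 h, and 1.56 and 1.62 after 12 h. For the first set all libraries of 0.25 h lay above all of 12 h, while for the second the times overlapped. The 10 pairs were chosen after their levels were seen, so this is a description. Taken singly, 7 of the 10 had both 0.25 h libraries above both 12 h libraries, and in 3 the times overlapped. The sum was carried by the first 2 pairs, and the other 8 stood at 21.6 and 25.4 after 0.25 h and 15.5 and 17.9 after 12 h. Relative to depth, the pair of chromosomes 14 and 15 gave 17.8 and 26.9 contacts per 1000000 contacts between chromosomes after 0.25 h and 5.95 and 5.90 after 12 h. The pair of chromosomes 13 and 21 gave 12.97 and 20.97 after 0.25 h and 4.56 and 4.86 after 12 h.

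The share of all contacts that lay inside a single 20 kb bin was also lower at longer digestion. It was 20.4% and 24.2% after 0.25 h, 18.9% and 19.3% after 1 h, 18.05% and 17.90% after 3 h, and 11.7% and 11.5% after 12 h. Between replicates the share differed most after 0.25 h, where the replicate with the higher share also had the higher level of the 10 pairs. After 1 h, 3 h and 12 h the shares lay close together, and the replicate with the slightly higher share had the lower level. With 2 libraries a time and such small gaps, this order does not tell how the measures go together. The part of the share in the level of the 10 pairs was not tested.

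**Figure D3:**
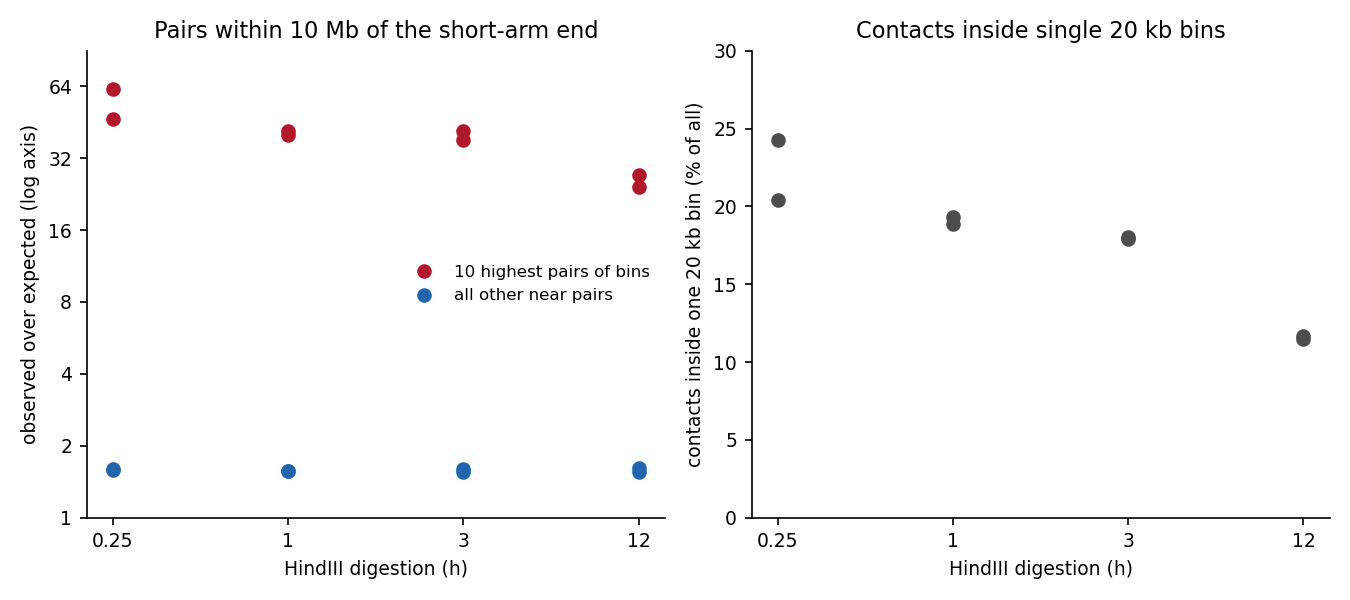
Left, observed over expected contacts (log axis) at each digestion time (h) in each library for the 10 highest near pairs of bins summed and for all other near pairs, and right, the share of all contacts inside 1 bin of 20 kb (% of all contacts). The 10 pairs fall from 46.7 and 62.4 to 24.3 and 27.1, the share falls from 20.4% and 24.2% to 11.7% and 11.5%, and the other near pairs stay between 1.56 and 1.62.

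Over all near pairs the fall with digestion time was past the threshold. The mean was 2.15 ± 0.16 after 0.25 h, 1.96 ± 0.0026 after 1 h, 1.96 ± 0.0041 after 3 h and 1.80 ± 0.054 after 12 h (SD, n = 2 each). Against log2 hours, Spearman's rho was -0.927 (n = 8, two-sided exact permutation p = 0.0032, adjusted over 3 trends by Benjamini-Hochberg 0.0095). The linear correlation was similar in size, with a Pearson's r of -0.878 (p = 0.0016 by exact permutation). With the 0.25 h libraries left out r was -0.867, with those of 12 h left out it was -0.742, and rho was -0.878 in the first sequencing run. The trends of all member pairs (rho 0, exact permutation p = 1, r 0.0063) and of far pairs (rho 0.098, exact permutation p = 0.86, r 0.12) did not pass it. These calls depended on the setting. The far trend had a rho of -0.976 (p = 0.00079 by exact permutation) with an expectation from the acrocentric chromosomes alone. That of all member pairs was -0.976 (p = 0.00079 by exact permutation) with the rearranged stretches put back and 0.781 (p = 0.035 by exact permutation) with only bins in which every 20 kb bin was present.

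The fall lay in near pairs with a bin in the first 2 Mb. Pairs with both bins there went from 8.99 ± 0.20 after 0.25 h to 8.20 ± 0.26 after 1 h, 8.20 ± 0.57 after 3 h and 7.06 ± 0.40 after 12 h (SD, n = 2 each, rho -0.878, exact permutation p = 0.010). The Benjamini-Hochberg value of this class was 0.077 over the family of 15 distance classes and 0.023 over a family of 9 added trends. Without chr21:10500001-11000000 the class stood at 2.87 ± 0.88 after 0.25 h and 3.07 ± 0.073 after 12 h (SD, n = 2 each). No trend was tested without that bin. Pairs of 1 bin in the first 2 Mb and 1 at 2 to 10 Mb went from 3.85 ± 0.39 to 2.85 ± 0.047 (rho -0.927, exact permutation p = 0.0032, Benjamini-Hochberg value 0.048), the only one of the 15 classes past the threshold after adjustment. They include the 2 highest near pairs, which held 1157 and 882 of their 9916 contacts. The fall of this class was not tested without those pairs, and near pairs outside the 10 highest stayed between 1.56 and 1.62. Pairs with both bins at 2 to 10 Mb were at 1.14 ± 0.034, 1.11 ± 0.0081, 1.12 ± 0.015 and 1.18 ± 0.046 in order of time (rho 0.439, exact permutation p = 0.30).

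Against farther bins the same first bins had values of the other direction, none past the threshold after adjustment. With bins at 10 to 20 Mb the means went from 1.44 ± 0.11 to 1.61 ± 0.019 (SD, n = 2 each, rho 0.781, exact permutation p = 0.035, Benjamini-Hochberg value 0.10), and those with bins at 20 to 40 Mb also had a positive trend (rho 0.732 with an exact permutation p of 0.055 and 0.14 after adjustment).

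The difference between the classes within 2 Mb and at 2 to 10 Mb itself narrowed with time (log2 difference, rho -0.927, exact permutation p = 0.0032, r -0.887). It was tested after the class values were seen. With the first 2 Mb left out, or with bins kept only where every 20 kb bin was present, rho of the near trend was 0.439 (exact permutation p = 0.30). With pairs of 5 Mb blocks above 3 left out it was 0.537 (exact permutation p = 0.19).

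The long arms of other autosomes in their first 2 Mb stood at 2.18 ± 0.15 after 0.25 h and 1.96 ± 0.051 after 12 h (SD, n = 2 each, rho -0.781, exact permutation p = 0.035), which missed the threshold after adjustment over 9 trends (Benjamini-Hochberg value 0.052). The difference of this class from the acrocentric class within 2 Mb had no trend past the threshold (rho -0.683, exact permutation p = 0.083). At 2 to 10 Mb the other long arms rose from 1.104 ± 0.0040 to 1.137 ± 0.0029 (rho 0.976, exact permutation p = 0.00079, the smallest possible here, Benjamini-Hochberg value 0.0071). The acrocentric class at that distance differed from them with no trend past the threshold (rho 0.146, exact permutation p = 0.76).

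**Figure D4:**
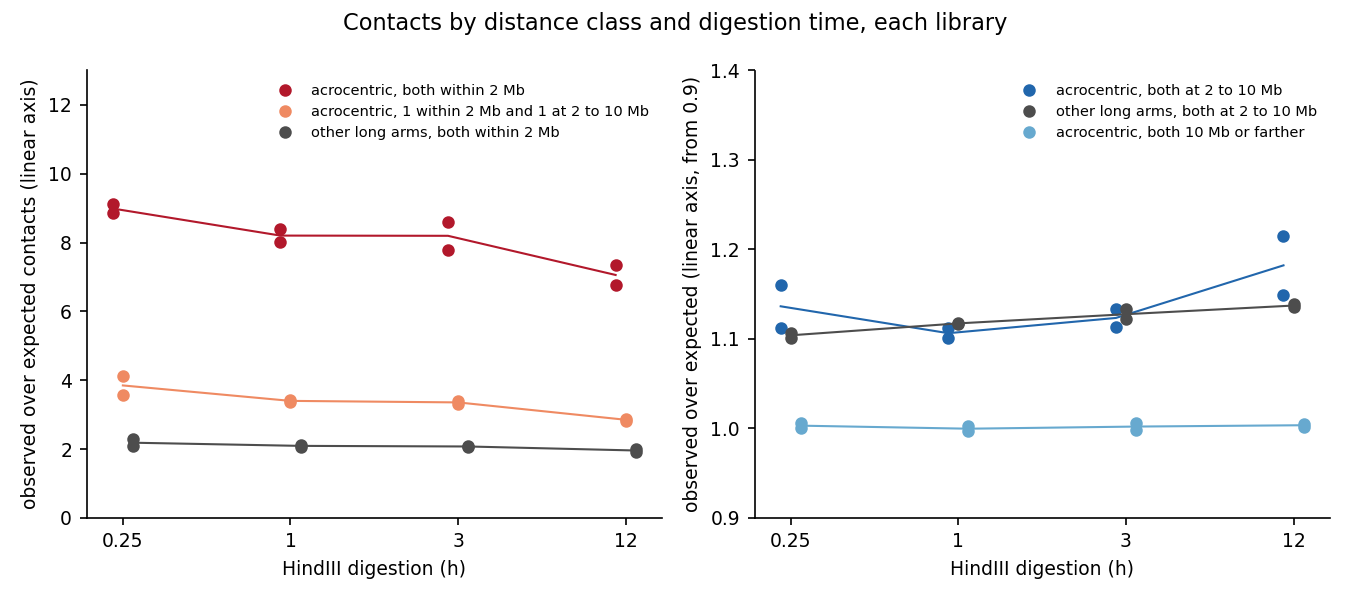
Observed over expected contacts (linear axes, the right one from 0.9) at each digestion time (h), with a point per library and lines through the means of 2 libraries. On the left, acrocentric pairs within 2 Mb fall from a mean of 8.99 to 7.06 and those of 1 bin within 2 Mb from 3.85 to 2.85, above the other long arms at 2.18 to 1.96. On the right, acrocentric pairs at 2 to 10 Mb lie above the other long arms after 0.25 h and 12 h (means 1.14 and 1.18 against 1.10 and 1.14). After 1 h they lie below them (1.11 against 1.12), and far pairs lie at 1.

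The 10 pairs of whole chromosomes differed widely among themselves. Chromosomes 15 and 22 met most, at 1.46 times the expectation, which was rank 12 of all 253 chromosome pairs. Their libraries stood at 1.47 and 1.39 after 0.25 h, 1.43 and 1.49 after 1 h, 1.46 and 1.47 after 3 h, and 1.48 and 1.46 after 12 h. Chromosomes 13 and 22 met least, at 0.779, rank 234. Their libraries stood at 0.807 and 0.864 after 0.25 h, 0.778 and 0.801 after 1 h, 0.779 and 0.799 after 3 h, and 0.761 and 0.744 after 12 h. No library of the lowest pair came near any of the highest, and the ratio between the pairs, the 2 extremes of 10 and so given as a description, was 1.84.

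Between these extremes, chromosomes 21 and 22 stood at 1.13, 14 and 15 at 1.09, 13 and 14 at 1.03 and 13 and 15 at 1.03. Chromosomes 15 and 21 stood at 0.976, 14 and 22 at 0.945, 14 and 21 at 0.8999 and 13 and 21 at 0.894. Of the 10 pairs 5 lay above 1, with a median of 1.004, against a median of 0.989 for the other 243 pairs, which ran from 0.643 to 2.57. Neighbours in this order overlapped over their libraries in 4 cases, 21 and 22 with 14 and 15, 13 and 14 with 13 and 15, 15 and 21 with 14 and 22, and 14 and 21 with 13 and 21.

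The chromosomes also differed in a property that the choice of members did not use, the other chromosomes they met. All bins of the genome were put into 5 classes of equal size by whether they met chromosomes 16, 17, 19 and 20 more than chromosomes 4, 5, 18 and X, with class 5 meeting the first set most. Chromosomes 19 and 17 are known to be rich in genes and 4, 18 and X to be poor. Every used bin of chromosome 22 fell in class 5, as did 40% of bins of chromosome 21 and 39.6% of chromosome 15. Only 12.0% of bins of chromosome 14 and 4.07% of chromosome 13 did. When the expectation was matched on these classes, chromosomes 15 and 22 stood at 1.13, chromosomes 13 and 22 at 0.861, chromosomes 15 and 21 at 0.850 and chromosomes 21 and 22 at 0.849. The last pair thereby moved from above to below 1, and 13 and 22 were no longer the lowest. Of all 253 pairs, 97 then lay above 1, with a median of 0.977. The contacts that set the classes also entered the matching, so the shift of class 5 bins is in part built in.

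**Figure D5:**
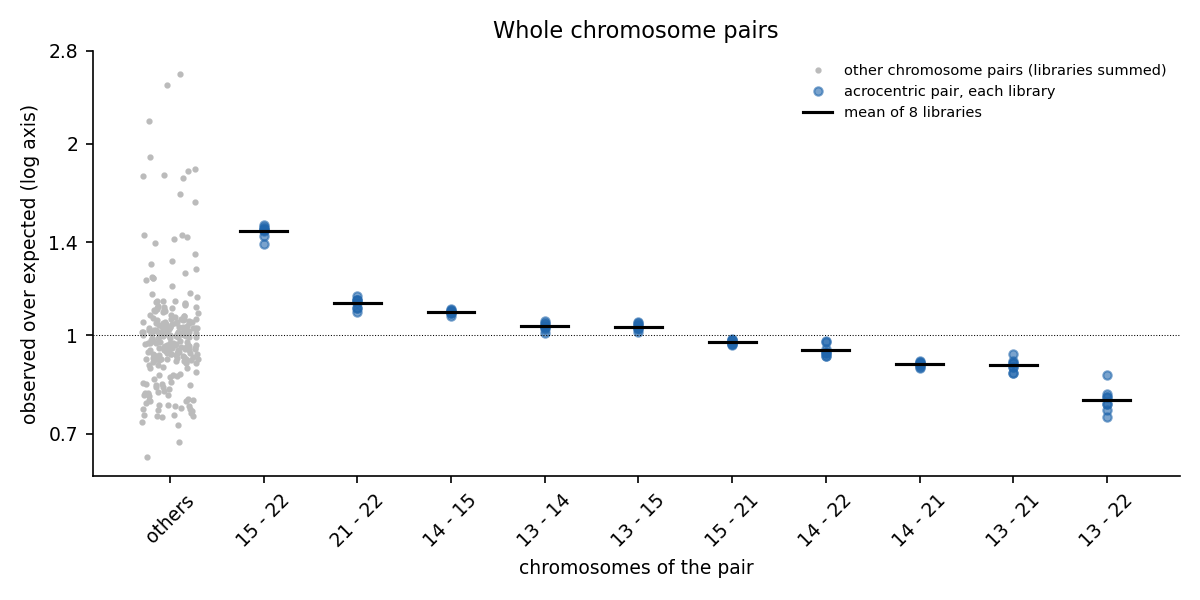
Observed over expected contacts (log axis) of the 10 acrocentric chromosome pairs, with a point per library and the mean of 8 libraries as a bar, beside the 243 other pairs of chromosomes with libraries summed (grey). The acrocentric pairs run from 0.779 for 13 and 22 to 1.46 for 15 and 22, within the range of the other pairs, 0.643 to 2.57.

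Near the short-arm end the order of chromosome pairs was another one. Chromosomes 13 and 21 led, with 2.96 times the expectation over 5631 near contacts, although as whole chromosomes they stood at 0.894 and their far parts at 0.767. Their near libraries fell from 3.42 and 4.09 after 0.25 h to 2.45 and 2.54 after 12 h. Chromosomes 14 and 15 followed at 2.24, 14 and 21 at 2.17, 15 and 21 at 1.95, 13 and 15 at 1.30 and 13 and 14 at 1.08. Pairs with chromosome 22 held 135 to 231 near contacts each, over its 2 near bins, and ran from 0.699 to 1.37.

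At 2 to 10 Mb, chromosomes 15 and 21 led the pairs among chromosomes 13, 14, 15 and 21, at 1.405. Chromosomes 14 and 15 had 1.31, and 13 and 15 had 1.26. The bins of chromosome 21 at that distance are the first of its used long arm. Chromosomes 14 and 21 had 1.03, 13 and 14 had 1.03 and 13 and 21 had 0.9002. The 3 pairs of chromosome 15 were thus the highest of these 6. Pairs with the 2 bins of chromosome 22 held 86 to 208 contacts each, with 1.48 for chromosome 13, 1.29 for chromosome 15, 0.877 for chromosome 14 and 0.581 for chromosome 21. By chromosome, the near bins of chromosome 21 met those of the others at 2.33 times the expectation, and those of chromosomes 13, 15 and 14 at 1.83, 1.83 and 1.79.

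Along the chromosomes, single bins departed little from expectation in their summed contacts with the other acrocentric chromosomes. Of 573 bins with at least 1000 expected contacts, 348 lay above 1, 15 above 1.2 and 12 under 0.8. The 4 highest lay in the first 2.5 Mb. They were chr21:10500001-11000000 at 2.04, chr15:22000001-22500000 at 1.93, chr14:20000001-20500000 at 1.65 and chr13:19000001-19500000 at 1.57. The next 6 ran from 1.23 to 1.26, and 5 of them also began 3 Mb or less from the start. The exception was chr22:33000001-33500000, at 1.24 and 16 Mb from its start.

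The 5 lowest bins lay together on chromosome 21 between 25500001 and 29500000. The lowest, from 25500001 to 26000000, stood at 0.545, with 0.532 after 0.25 h, 0.525 after 1 h, 0.544 after 3 h and 0.563 after 12 h, and the other 4 ran from 0.591 to 0.704. Chromosome 21 had 53 pairs of 5 Mb blocks above 2 times the expectation with chromosome 12, up to 39.4 times, and 40 with chromosome 1, up to 12.5 times, while chromosome 13 had 34 with chromosome 9, up to 29.4 times. The part of these contacts in the low values of the 5 bins was not tested. With an expectation fitted without block pairs above 2, which was added after these values were seen, chromosomes 15 and 22 stood at 1.68, 21 and 22 at 1.43, 15 and 21 at 1.09, 14 and 22 at 1.06, 13 and 21 at 1.01 and 13 and 22 at 0.899. Of the 10 pairs, 8 then lay above 1, as did 151 of all 253 pairs, whose median was 1.02, and 7 lay above that median. Chromosome 22 had such block pairs too, 46 with chromosome 17 and 45 with chromosome 19. Acrocentric block pairs above 2 were left out of this fit but kept in the observed contacts, so the rises are in part built in.

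Of pairs of 5 Mb blocks with at least 500 expected contacts, 650 in all, the 5 highest lay far from the short-arm ends. Of the 650, 143 had a block starting within 10 Mb of a short-arm end, and these reached 1.95. Without the limit of 500, 30 block pairs stood above 3, of which 20 had a block starting within 10 Mb of the short-arm end, up to 30.3 times for chr13:15000001-20000000 with chr21:10000001-15000000. The block chr15:65000001-70000000 met chr22:40000001-45000000 at 3.00 times the expectation, with 1520 contacts. Its libraries stood at 3.35 and 3.14 after 0.25 h, 2.89 and 2.7998 after 1 h, 3.57 and 2.98 after 3 h, and 2.76 and 2.798 after 12 h. The same block of chromosome 15 met chr14:100000001-105000000 at 2.21 and the last 5 Mb block of chromosome 21 at 2.15. That last block of chromosome 21 also met chr15:40000001-45000000 at 2.57 and chr15:75000001-80000000 at 2.16. All 5 thus held a block of chromosome 15, though the limit of 500 bears on this. Below that limit, the last block of chromosome 21 met chr22:40000001-45000000 at 3.85, with 1279 contacts against 332 expected. Chosen as the highest, the 5 carry no test.

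The other end of the acrocentric chromosomes, the last 5 Mb of the long arm, was enriched as well. Pairs of such bins on different acrocentric chromosomes, which had 41 bins, stood at 1.59 times the expectation, and those of other autosomes at 1.73. Chromosome 13 gave only its last bin to this class, since the stretch before it was left out. The acrocentric value was lower in 8 of 8 libraries (log2 difference -0.10 ± 0.058, SD, n = 8, exact two-sided sign-flip p = 0.0078). Its means were 1.62 ± 0.044 after 0.25 h and 1.59 ± 0.095 after 12 h (SD, n = 2 each), with no trend past the threshold (rho -0.146, exact permutation p = 0.76). That of the other autosomes rose from 1.66 ± 0.021 to 1.78 ± 0.0075 (rho 0.878, exact permutation p = 0.010, Benjamini-Hochberg value 0.023). Near bins met the long-arm ends of other acrocentric chromosomes at 0.948 times the expectation.

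Across all features, 0.25 h was tested against 12 h with limma on log2 observed over expected values and Benjamini-Hochberg adjustment. Over chromosome pairs, 34.4% of all 253 were called at 0.05, and 2 of the 10 acrocentric pairs were among them. Chromosomes 13 and 22 were higher after 0.25 h, by 0.15 on the log2 scale (SE 0.032, limma adjusted p = 0.011), with means of -0.26 after 0.25 h and -0.41 after 12 h. Chromosomes 14 and 15 were higher after 0.25 h by 0.024 (SE 0.0069, limma adjusted p = 0.031). The most enriched pair, 15 and 22, had a difference of -0.038 (SE 0.027, limma adjusted p = 0.30). The median difference over the 10 was -0.00053, and 0.0015 over all pairs. Log2 values of all 253 pairs were spread less after 0.25 h (SD 0.275 and 0.267) than after 12 h (SD 0.297 and 0.301). Whether the change of chromosomes 13 and 22 exceeds this was not tested. The count of 2 changed when any single library was left out, and the count over all 253 pairs changed with it. Such a fit leaves 1 library at that time. Limma called 0 of 10 in the first sequencing run, with 1 at an unadjusted p under 0.05, where it called 7 of all 253 pairs.

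Over bins, each 500 kb bin's contacts with acrocentric chromosomes other than its own were tested. Limma called 0.272% of all 5518 bins and 4 of the 578 acrocentric bins, all within 2.5 Mb of the start. Of these, 3 were higher after 0.25 h, where 0.217% of all bins were called in that direction, and 1 was lower, where 0.0544% were. The bin chr15:22000001-22500000 was higher after 0.25 h by 0.70 on the log2 scale (SE 0.10, limma adjusted p = 9.7e-06), chr13:19000001-19500000 by 0.53 (SE 0.094, limma adjusted p = 0.00075) and chr14:20000001-20500000 by 0.36 (SE 0.072, limma adjusted p = 0.0051). These are bins of the 2 highest near pairs, and the bins of chromosomes 14 and 15 share 1 pair, so the calls are not independent. Of these 3 bins, the one of chromosome 15 alone was called without 0.25 h replicate 2, without 12 h replicate 1 or with only 0.25 h and 12 h fitted. Those of chromosomes 13 and 15 were called without 12 h replicate 2, and none in the first sequencing run.

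The bin chr21:9500001-10000000 was lower after 0.25 h, a call that also rested on single libraries. Its mean log2 value was 0.12 ± 0.23 after 0.25 h, 0.36 after 1 h, 0.27 after 3 h and 0.44 ± 0.0064 after 12 h (SD, n = 2), a difference of -0.31 (SE 0.069, limma adjusted p = 0.019). The call was absent without 0.25 h replicate 2, without either 3 h library, without either 12 h library, or with only 0.25 h and 12 h fitted, and its trend over log2 hours had a limma adjusted p of 0.21. The other short-arm bin of chromosome 21, with the highest level of all, was at 2.06 times the expectation after 0.25 h and 2.04 after 12 h. The count of 4 changed when any single library of 0.25 h, 3 h or 12 h was left out, and the count over all bins changed with it. Such a fit leaves 1 library at that time. In the first sequencing run the count was 0, with 28 acrocentric bins at an unadjusted p under 0.05, where limma called 2 of 5516 bins. The median log2 difference was -0.0053 over the 578 bins and 0.0057 over all bins, and 270 of the 578 were higher after 0.25 h.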

How the data were processed

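The 8 second-run files were used, with the first run of the same libraries as an alternative. Per the labels, each file lists pairs of bins, and per the submitters' processing notes HiC-Pro 2.11.1 and Bowtie2 2.3.4.1 were used with build hg19. The signal as deposited by the authors was balanced, with equal totals for all bins of a file. It was turned back into whole contacts by finding 1 factor per bin. At least 99.9997% of values came within 0.01 of a whole number in every library. Contacts of 20 kb bins (50 kb in the first run) were summed to 500 kb. A bin was used when 50% of it was present in all 8 libraries. Expected contacts were fitted over all pairs of bins on different chromosomes, 1 to 22 and X, with the left-out stretches removed from both observed and expected contacts. The last bin of chromosome 13 stayed among the members.

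Levels were compared over libraries with exact two-sided sign-flip tests, and trends with log2 hours by exact permutation (smallest p 0.00079). Chromosome pairs and bins were tested over all features with limma 3.58.1 (R 4.3.3) on 4 time groups, and 0.5 contacts were added to bins before log2. All 10 chromosome pairs were named, as were the 10 highest and 5 lowest bins with at least 1000 expected contacts, the 5 largest changes called in each direction, and the 5 highest block pairs with at least 500 expected. The members, lists and tests were chosen with earlier results of these data known. Scripts were tested on simulated data. No hg19 genome sequence or gene annotation was used here, so no sequence is shown and no gene is named.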

Additional observations from a re-analysis of the deposited data

Results flagged for a closer look

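The stretches left out by the choice of members held a signal of their own. The end of chromosome 13 from 80 Mb on and chromosome 22 from 16 to 26 Mb shared 319077 contacts with each other, 9.11 times the expectation, in 70 and 18 bins. This exceeded the level of any pair of whole acrocentric chromosomes. Each of these stretches met the kept acrocentric bins below expectation, at 0.763 times for that of chromosome 13 and 0.776 times for that of chromosome 22. The left-out stretch of chromosome 22 met the near ends of chromosomes 13, 14, 15 and 21 at 0.827 times. Since every bin kept its total, the high level between these stretches lowers their values with other bins. The values below 1 are thus in part built in. K562 is known for a rearranged chromosome 22, and the part of joined copies in these values was not tested.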

How the results depend on the processing

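The near level over the far level kept its direction and its side of the threshold under all alternatives run, but not its size. The log2 difference of 0.97 became 0.18 with the first 2 Mb left out, 0.23 with only bins fully present, 0.27 without block pairs above 3, 0.33 with the rearranged stretches put back, 0.49 without chromosome 21, 0.26 with near drawn at 20 Mb and 2.17 with near at 5 Mb. The difference of all member pairs from other contacts, as log2, was 0.0027 with the first 2 Mb left out. It turned to -0.032 with the expectation matched on partner classes, -0.0022 without block pairs above 3, -0.0039 with only bins fully present, -0.079 without chromosome 15 and -0.0013 without chromosome 22. The difference of near pairs from other long arms turned to -0.061 with the first 2 Mb left out, -0.013 with the rearranged stretches put back and -0.015 with only bins fully present. It was 0.020 without block pairs above 3, and 0.019 with the first 2 Mb of all long arms left out, an alternative chosen after seeing the data. So were the expectation fitted without block pairs above 2, which ended none of these calls, and the removal of chromosome 21 or of its bin from 10500001 within 2 Mb.

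The near trend had a rho of 0.439 with the first 2 Mb left out and with only bins fully present, 0.537 without block pairs above 3 and -0.098 with near drawn at 20 Mb. The trend of all member pairs, 0 in the main setting, was -0.976 with the rearranged stretches put back and 0.781 with only bins fully present, both past the threshold. An expectation from the acrocentric chromosomes alone can give it no value. The far trend was -0.976 (exact permutation p = 0.00079) under that expectation, where it restates the near trend. It also turned, without passing the threshold, to -0.586 with the deposited balanced signal, -0.098 in the first run and without chromosome 21, -0.146 with matched classes and without block pairs above 3, -0.537 without chromosome 15, -0.244 without chromosome 22 and with near at 20 Mb, and -0.488 with near set by coordinate.

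Acrocentric chromosome pairs called by limma numbered 1 with only 0.25 h and 12 h fitted, 0 in the first run and 5 with the stretches put back. Acrocentric bins called numbered 1, 0 and 21 in the same settings, beside 6 of all 5518, 2 of 5516 and 32 of 5606 bins. The 21 include bins of the put-back stretches, which the main setting did not test. Leaving out 1 library changed the counts of acrocentric pairs and bins called, along with those over all pairs and bins. It gave 0.027 to 0.029 for the level of all pairs, 0.94 to 0.99 for near over far, 0.70 to 0.75 for near over other long arms, and rho of -0.404 to 0.239 for all pairs, -0.973 to -0.899 for near pairs and -0.037 to 0.422 for far pairs. Same-numbered replicates showed little joint deviation (correlations over bins 0.00075 to 0.021 and over chromosome pairs -0.26 to 0.029). Counting error also lowers such correlations, so shared handling is not excluded, and the libraries were taken as unpaired. With a replicate block, limma called 3 acrocentric pairs, beside 89 of all 253, and 4 acrocentric bins, beside 15 of all 5518. The near trend then had an exact permutation p of 0.010. Depth limits single 500 kb pairs most, with a median of 5.21 expected contacts over all libraries.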
